A study of Mus musculus with 15 samples.

Results

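Hearts that had lost Acsl1 for 10 weeks were compared with control hearts of the same age across all genes and single probes of a mouse expression array. Of the 15 arrays of the study, the 8 of this time point entered the comparison, 4 from knockout and 4 from control ventricles, and the 7 arrays of 2 weeks (3 knockouts and 4 controls) served for comparison. Knockouts are labelled Acsl1H-/-, which the labels give as an inducible loss of Acsl1 in the heart, and controls are their Acsl1flox/flox littermates. All animals were male, of strain C57Bl/J6, and received tamoxifen by intraperitoneal injection at 75 mg/kg for 4 days when 6 to 8 weeks old, so tamoxifen and the flox alleles were common to both groups. Ventricles were taken 2 or 10 weeks after tamoxifen. The labels name neither the recombinase nor its promoter, and no group carried a recombinase without the flox alleles, so loss of Acsl1 and presence of the recombinase cannot be told apart. Arrays are given as biological replicates. Probes of Acsl1 were not analysed here, and its loss is taken from the labels.

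Acsl1 encodes the main long-chain acyl-CoA synthetase of the heart. It joins fatty acids to coenzyme A, a step needed before their mitochondrial oxidation, which supplies most of the energy of an adult heart. A heart that oxidises less fatty acid is known to take up more glucose and to activate mTORC1, a kinase complex that promotes protein synthesis and growth. Fatty acids and their derivatives are also ligands of PPARα, a nuclear receptor that controls genes of fatty acid uptake and oxidation, and shortage of amino acids or mitochondrial stress induces a separate set of genes through the transcription factor ATF4.

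Each array was hybridised with 500 ng of heart RNA labelled with Cy-5 and a whole mouse reference RNA labelled with Cy-3. Values were read as log2 of heart RNA over reference RNA. The direction of the ratio is likely rather than settled, since it rests on the order of the dyes, and with the opposite sign every rise would be a fall. Every probe had been centred on a median of 0 over the 15 arrays, so a value compares arrays within a probe, carries no level of expression, and cannot show whether the defining markers of ventricle muscle were present. A gene is the mean of its probes, and a difference is the mean of the 4 knockouts minus the mean of the 4 controls, given as log2 difference ± SE. A gene was called, and is said to have risen or fallen, at an adjusted p under 0.05 (limma, Benjamini-Hochberg over 19532 genes). In RNA from whole ventricle, fewer cells of a type and less RNA per cell cannot be told apart. Correlations between arrays ran from -0.0582 to 0.142 after centring. The first principal component held 11.9% of the variance and set the 4 knockouts of 10 weeks apart from the other 11 arrays. The array control spots AT_nX_3 and AT_nX_5 read at least 7.60 and 6.12 on all 7 knockout arrays and at most 0.00 on all 8 control arrays, so they separated the labelled genotypes on every array.

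At 10 weeks 134 genes were called, 0.686% of those tested. Of these, 70 rose (0.358%) and 64 fell (0.328%). For all 134 the knockout arrays and the control arrays did not overlap, whereas the groups did not overlap for 6.6% of all genes (3.24% higher and 3.36% lower in knockouts). The 134 were chosen by their p on these same arrays, so their separation largely follows from the choice and adds no evidence. The median rise was 0.97 and the median fall -0.87 on the log2 scale, against a median difference of -0.0179 over all genes. At least a 2-fold difference was reached by 35 of the genes that rose and 26 of those that fell, and at least a 4-fold difference by 13 and 5. The largest rise, 3.79 ± 0.35 (adjusted p = 0.000355), belonged to Gsta2, a glutathione transferase, and the largest fall, -2.91 ± 0.46 (adjusted p = 0.0114), to Gpr22, an orphan G protein-coupled receptor of heart and brain. When each of the 15 arrays was left out in turn, 45 genes stayed called in all 15 fits, and the count ran from 61 without knockout replicate 2 to 142. All 134 kept their sign in each of 23 alternative analyses, which reuse the same arrays, so a kept sign is weak support. Only 27 stayed called in all 23, 21 higher and 6 lower. With the 8 arrays of 10 weeks fitted alone, 50 genes were called, 37 of them among the 134. On 45 lists of pathway genes stood 47 of the 134, and 87 stood on none. The lists and their members were chosen with earlier results of these data known. A list share above that of all genes is therefore a description and not independent evidence. Counts of called list members below are to be read beside the 0.686% of all genes. Counts of list members at an unadjusted p under 0.05 (limma) are to be read beside 9.96% of all genes at 10 weeks.

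**Figure D1:**
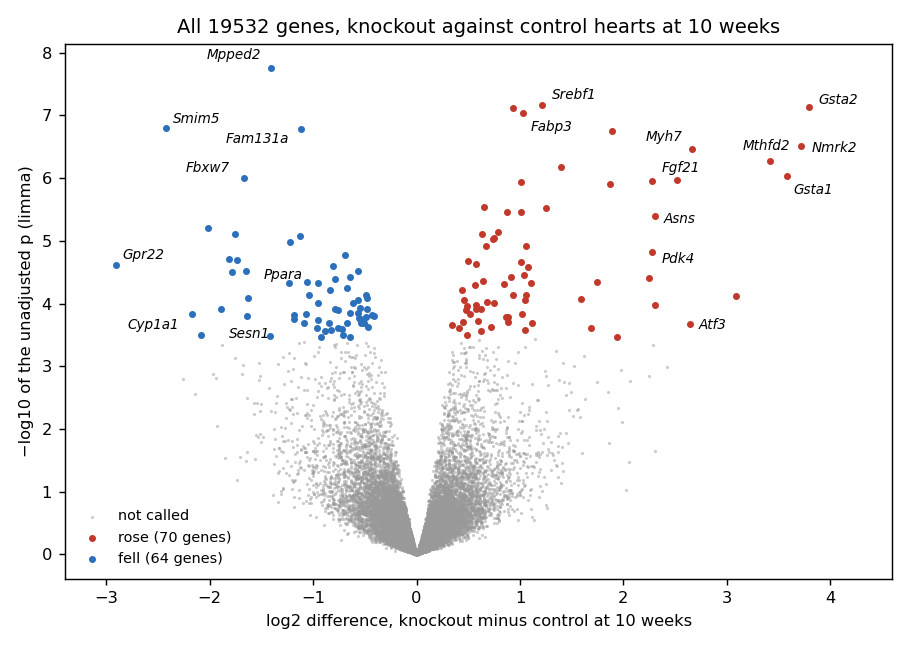
Log2 difference of each of the 19532 genes (horizontal axis, knockout minus control at 10 weeks) against the negative log10 of its unadjusted p (vertical axis). Red points mark the 70 genes that rose, blue points the 64 that fell and grey points genes that were not called, and the rises reach further from 0 (Gsta2 at 3.79) than the falls (Gpr22 at -2.91).

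Genes of the amino acid response were among the largest rises. Asparagine synthetase, Asns, read 2.06, 2.72, 1.68 and 2.33 in the 4 knockouts and 0.00, 0.56, -0.82 and -0.14 in the 4 controls. The lowest knockout lay more than 1 log2 unit above the highest control, and the log2 difference was 2.30 ± 0.30 (adjusted p = 0.00344). Mthfd2, the mitochondrial enzyme that makes one-carbon units from folate, read 2.87, 4.07, 2.24 and 3.61 in knockouts and -0.33, -0.25, 0.00 and -0.28 in controls, a log2 difference of 3.41 ± 0.38 (adjusted p = 0.000951). Chac1, which degrades glutathione, read 1.90, 2.10, 1.43 and 1.97 in knockouts against 0.00, 0.22, 0.73 and -0.51 in controls, a log2 difference of 1.74 ± 0.29 (adjusted p = 0.0162). All 4 knockouts were high for these 3 genes, and no control reached them. Among transcription factors of this response, Atf5 rose by 1.25 ± 0.16 (adjusted p = 0.00295), with knockouts from 0.83 to 1.51 and controls from -0.40 to 0.22. Atf3, which is also induced as an immediate early gene, rose by 2.64 ± 0.52 (adjusted p = 0.0358), with knockouts from 0.89 to 2.01. Control replicate 1 stood at 0.06 for Atf3 and the other 3 controls from -1.71 to -1.44. Without 1 array the call of Chac1 ended for knockout replicates 2 and 4 and control replicates 1 and 4 (adjusted p up to 0.0583). The call of Atf3 ended without any of knockout replicates 1 to 4, control replicates 2 to 4 and 2-week control replicates 2 and 4 (adjusted p up to 0.112).

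The secreted hormone Fgf21 and the pseudokinase Trib3, both known targets of ATF4, each rested on 1 of 2 probes. Probe A_52_P235347 of Fgf21 read 4.02, 4.25, 3.83 and 4.07 in knockouts and -0.24, -0.01, -0.12 and -0.40 in controls. Its log2 difference of 4.24 ± 0.15 had the smallest adjusted p of all 41174 mouse probes (3e-08, limma), whereas the other probe gave 0.32 ± 0.54 (adjusted p = 0.943). The mean of both, 2.28 ± 0.27 (adjusted p = 0.00134), is the value of the gene. For Trib3 the probes gave 3.20 ± 0.54 (adjusted p = 0.0199) and 0.16 ± 0.53 (adjusted p = 0.975), and the gene rose by 1.68 ± 0.34 (adjusted p = 0.0394). Knockouts ranged from 0.77 to 1.74 for Trib3 and controls from -1.19 to 0.21. The call of Trib3 ended without any of knockout replicates 1 to 4, control replicates 1 to 3, 2-week knockout replicate 1 and 2-week control replicates 1, 2 and 4 (adjusted p up to 0.119).

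ATF4 binds with CEBP partners to an element whose core was searched here as TGATGNAA on either strand, in the window from 250 bases before to 50 after each start site (RefSeq, GRCm38.p6). The core was present for 6 of the 57 genes that rose and had a promoter in the table (10.5%), for 3 of 51 that fell (5.88%) and for 4.51% of all 27025 genes with a promoter. The 6 were Asns, Chac1, Atf3, Fgf21, Trib3 and Fabp3, and a match is a description of letters and not a shown binding site. The windows of the 5 that belong to the amino acid response are shown because these genes rose together. The window of Asns is chr6:7693160-7693459 (minus strand) and that of Chac1 chr2:119350992-119351291 (plus strand). The window of Atf3 is chr1:191183284-191183583, that of Fgf21 chr7:45615441-45615740 and that of Trib3 chr2:152344011-152344310, all on the minus strand. Each is printed 5′ to 3′ along its gene, with the core in capitals, as TGATGNAA in Asns and in its reverse complement in the other 4.
Asns: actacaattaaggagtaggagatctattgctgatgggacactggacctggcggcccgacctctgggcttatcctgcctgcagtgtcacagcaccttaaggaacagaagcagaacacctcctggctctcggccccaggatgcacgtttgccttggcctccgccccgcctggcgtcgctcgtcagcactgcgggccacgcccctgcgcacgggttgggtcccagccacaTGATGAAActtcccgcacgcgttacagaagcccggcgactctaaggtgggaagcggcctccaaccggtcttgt
Chac1: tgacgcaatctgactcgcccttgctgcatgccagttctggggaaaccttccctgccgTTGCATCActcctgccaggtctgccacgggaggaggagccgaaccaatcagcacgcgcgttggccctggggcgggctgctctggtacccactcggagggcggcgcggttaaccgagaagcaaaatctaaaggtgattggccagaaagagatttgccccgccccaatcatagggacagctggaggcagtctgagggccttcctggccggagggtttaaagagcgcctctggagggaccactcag
Atf3: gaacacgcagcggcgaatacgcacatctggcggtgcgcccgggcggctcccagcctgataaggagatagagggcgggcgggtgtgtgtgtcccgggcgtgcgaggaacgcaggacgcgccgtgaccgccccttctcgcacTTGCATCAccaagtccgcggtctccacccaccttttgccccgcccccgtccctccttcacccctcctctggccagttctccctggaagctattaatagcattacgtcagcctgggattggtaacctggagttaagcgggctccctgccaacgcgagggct
Fgf21: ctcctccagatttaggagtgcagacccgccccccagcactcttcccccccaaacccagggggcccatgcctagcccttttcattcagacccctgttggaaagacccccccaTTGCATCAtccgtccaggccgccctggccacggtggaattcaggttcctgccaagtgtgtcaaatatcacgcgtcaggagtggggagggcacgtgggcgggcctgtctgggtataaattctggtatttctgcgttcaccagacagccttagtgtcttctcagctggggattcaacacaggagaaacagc
Trib3: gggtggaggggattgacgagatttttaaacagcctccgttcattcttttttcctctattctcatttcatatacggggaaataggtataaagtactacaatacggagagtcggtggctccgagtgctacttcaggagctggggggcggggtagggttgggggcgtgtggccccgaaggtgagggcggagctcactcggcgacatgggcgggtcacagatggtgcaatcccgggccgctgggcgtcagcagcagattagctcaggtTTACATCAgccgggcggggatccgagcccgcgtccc

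Counted from the start site, the match began at base -23 in Asns, -110 in Atf3, -139 in Fgf21, -193 in Chac1 and 15 in Trib3. The letters TTGCATCA were shared by Chac1, Atf3 and Fgf21. Cores of 2 other elements were counted in the same windows, with no test of the shares. The antioxidant core TGACNNNGC was present for 9 of 57 that rose (15.8%), 8 of 51 that fell (15.7%) and 14.0% of all genes. The PPAR element is a direct repeat of AGGTCA with 1 base between, and at most 2 letters were allowed to change. It was present for 2 of 57 that rose (3.51%), 1 of 51 that fell (1.96%) and 4.40% of all genes. The antioxidant core was found in this window for neither Gsta1 nor Gsta2.

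Beyond these leading genes the amino acid response was uneven. Among 27 measured regulators and signals of the stress response, 5 rose (Atf3, Atf5, Trib3, Chac1 and Fgf21) and 1 fell, with a median difference of 0.09. Together 22.2% were called, against 0.686% of all genes. The one that fell was Eif4ebp1, the translation repressor 4E-BP1, described with mTORC1 below. Among 19 aminoacyl-tRNA synthetases, which load amino acids onto tRNAs, 2 rose, 15 were above 0, and the median was 0.39. Their shares were 10.5% and 78.9%, against 0.358% of all genes that rose and 46.5% above 0. Sars, for serine, rose by 0.63 ± 0.09 (adjusted p = 0.00564) and Lars, for leucine, by 0.60 ± 0.12 (adjusted p = 0.0355), the latter with 3 probes at 0.27, 0.60 and 0.91. The call of Lars ended without knockout replicates 1, 2 or 4, control replicates 1 to 4 or 2-week control replicates 1 or 4 (adjusted p up to 0.0983). Of 31 genes of amino acid synthesis and transport, Asns alone was called. The leucine transporter Slc7a5 read 1.34 to 1.75 in knockouts and -0.04 to 0.54 in controls, a log2 difference of 1.38 ± 0.35 that did not pass (adjusted p = 0.112). Of 14 serine and folate genes Mthfd2 alone was called, although 11 were above 0. Psat1, of serine synthesis, was above all controls in 2 of 4 knockouts (1.54 and 1.24, against at most 0.59), and did not pass (0.72 ± 0.29, adjusted p = 0.411).

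Folding genes of the endoplasmic reticulum and of mitochondria were counted separately. Limma called none of 22 chaperones of the endoplasmic reticulum (5 at an unadjusted p under 0.05, against 9.96% of all genes). Above 0 were 5 of 22, with a median of -0.18. Hspa5, its main Hsp70 chaperone, read -0.58 to -0.33 in knockouts and 0.00 to 0.40 in controls, a log2 difference of -0.64 ± 0.15 (adjusted p = 0.0888). Among 19 mitochondrial chaperones and proteases 13 were above 0 with a median of 0.04, and the 1 called, Hspe1, the co-chaperonin Hsp10, rose by 0.44 ± 0.08 (adjusted p = 0.0191). Its call ended without knockout replicates 1 or 4 or control replicates 1 or 4 (adjusted p up to 0.0673), and its partner Hspd1, at 0.38 ± 0.11, did not pass (adjusted p = 0.170). The rise of Atf3 stood beside higher values of other immediate early genes, which respond within minutes to stimulation and to tissue handling. The mean of 29 such genes spanned 0.13 to 0.39 in knockouts and -0.32 to 0.01 in controls, 22 of 29 were above 0, and the part of handling was not tested. Jun, a partner of ATF3, rose by 0.72 ± 0.14 (adjusted p = 0.0393), a call lost without knockout replicates 1 to 4, control replicates 2 to 4, 2-week knockout replicates 1 or 2 or 2-week control replicates 1 or 3 (adjusted p up to 0.105). Egr1 read 0.29 to 2.18 in knockouts and -0.95 to -0.23 in controls and did not pass (1.85 ± 0.50, adjusted p = 0.141).

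**Figure D2:**
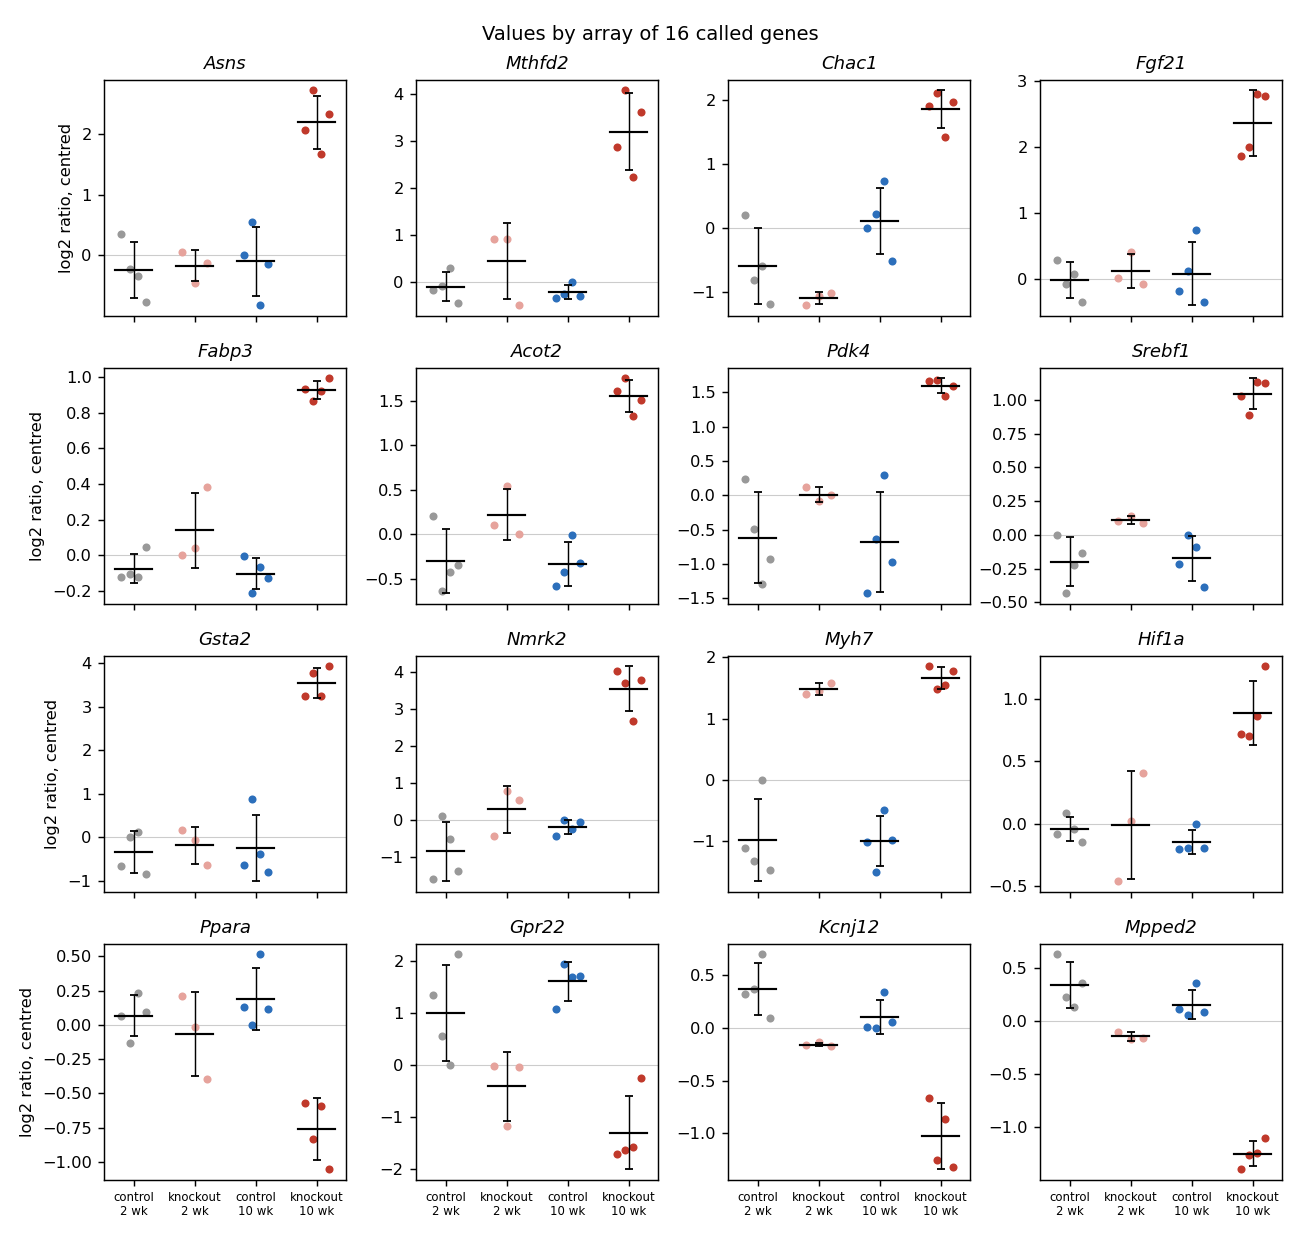
Centred log2 ratio of heart over reference (vertical axes, 1 scale per gene) of 16 called genes on each of the 15 arrays, by group, with points for arrays, a line for the group mean and bars for 1 SD. In all 16, which were chosen from the called genes, the 4 knockouts of 10 weeks lie apart from the 4 controls of 10 weeks. Myh7 is the one whose 2-week knockouts (1.40 to 1.59) stand as high as those of 10 weeks.

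Some genes that handle fatty acids and acyl-CoA inside the cell rose, 2 of 14 of uptake and binding and 2 of 14 thioesterases. Each share was 14.3%, against 0.358% of all genes. Fabp3, which carries fatty acids through heart muscle cells, read 0.93, 0.86, 0.92 and 0.99 in knockouts, and no control was above 0 (lowest -0.21). Its log2 difference of 1.03 ± 0.10 was called at an adjusted p of 0.000355 and in all 23 alternatives. Dbi, which binds acyl-CoA, rose by 0.67 ± 0.10 (adjusted p = 0.00711). The acyl-CoA thioesterases Acot2 of mitochondria and Acot1 of the cytosol, which split acyl-CoA back into fatty acid and coenzyme A, were the 2 called thioesterases. Acot2 read 1.61, 1.75, 1.32 and 1.51 in knockouts and -0.59, -0.42, -0.01 and -0.33 in controls, a log2 difference of 1.89 ± 0.19 (adjusted p = 0.000434). Acot1 rose by 1.39 ± 0.16 (adjusted p = 0.00107), with knockouts from 0.68 to 1.05 and controls from -0.63 to -0.36. The 2 genes are close paralogs, and cross-hybridisation between their probes was not tested. Limma called none of the 15 other acyl-CoA synthetases (2 at an unadjusted p under 0.05, against 9.96% of all genes). The largest difference among those named here, 1.58 ± 0.49 for Acsl3, did not pass (adjusted p = 0.214). For Acsl3, knockout replicate 3 at 0.06 lay inside the range of controls (-1.12 to 0.30).

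Of 39 genes of the carnitine shuttle and beta-oxidation, 30 were above 0 and 13 had all knockouts above all controls (against 3.24% of all genes). Of the 39, 2 were called (5.13%, against 0.686%). Cpt1b, the muscle transferase that admits acyl groups to mitochondria, read 0.38, 0.51, 0.47 and 0.31 in knockouts and -0.17, -0.28, 0.01 and -0.19 in controls. It rose by 0.58 ± 0.09 (adjusted p = 0.0114), and both probes were near this value (0.55 and 0.60). Mlycd, the decarboxylase that removes the CPT1 inhibitor malonyl-CoA, rose by 0.57 ± 0.10 (adjusted p = 0.0261), a call lost without any knockout or without control replicates 1, 2 or 4 (adjusted p up to 0.0806). The next members by p were Hadhb (0.51 ± 0.11, adjusted p = 0.0627) and Acadl (0.46 ± 0.10, adjusted p = 0.0702), enzymes of the oxidation spiral that did not pass. Pdk4, the kinase that shuts pyruvate dehydrogenase, read 1.66, 1.68, 1.44 and 1.59 in knockouts and -1.42, -0.63, 0.29 and -0.97 in controls. Its controls were spread over more than 1 log2 unit and its knockouts were close together, and it rose by 2.28 ± 0.34 (adjusted p = 0.00868). Angptl4, an inhibitor of lipoprotein lipase, had a lowest knockout of 0.67 and a highest control of 0.05, and missed the threshold (1.62 ± 0.36, adjusted p = 0.0732). The uncoupling protein Ucp3 likewise differed by 1.24 ± 0.30 without passing (adjusted p = 0.0976).

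The receptor that is known to drive many of these genes went the other way. Ppara read -0.57, -0.83, -0.59 and -1.05 in knockouts and 0.13, 0.00, 0.51 and 0.11 in controls. It fell by 0.95 on the log2 scale (SE 0.16, adjusted p = 0.0162), and the call ended without knockout replicate 2 (adjusted p = 0.0571) or knockout replicate 4 (adjusted p = 0.0572). Lpin1, a phosphatidate phosphatase that also acts as a coactivator of PPARα, fell by 0.41 (SE 0.08, adjusted p = 0.0317), with its 4 probes between -0.48 and -0.34, and the call ended without any of knockout replicates 1, 2 or 4 or control replicates 1 to 4 (adjusted p up to 0.0922). These were the only 2 called of 18 receptors and coactivators of the PPAR and ERR families (11.1%, against 0.686% of all genes), whose median was -0.06. Ppargc1a, a coactivator of mitochondrial genes, did not pass (-0.24 ± 0.15, adjusted p = 0.694).

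Of 24 genes of the SREBP factors and fatty acid synthesis, 3 rose (12.5%, against 0.358% of all genes). Srebf1, which encodes the transcription factor SREBP-1, read 1.03, 0.89, 1.13 and 1.13 in knockouts, with no control above 0 (lowest -0.39). Its log2 difference of 1.22 ± 0.11 (adjusted p = 0.000355) was called in all 23 alternatives. Scd2, a desaturase, rose by 0.89 ± 0.17 (adjusted p = 0.0320) and Insig1, which retains SREBP in the endoplasmic reticulum and is itself a target of it, by 1.02 ± 0.19 (adjusted p = 0.0305). The 2 probes of Insig1 gave 1.99 ± 0.43 and 0.05 ± 0.13, and neither was called by itself (adjusted p = 0.0685 and 0.967). Of 21 genes of sterol synthesis and uptake 0 were called by limma and 1 had an unadjusted p under 0.05, the cholesterol exporter Abca1 (0.65 ± 0.20, adjusted p = 0.199). Lpcat3, which puts unsaturated acyl chains into phospholipids and was named after its values were seen, rose by 0.91 ± 0.15 (adjusted p = 0.0150). Of 33 genes of triacylglycerol synthesis, droplets and lipolysis, Agpat3 (0.50 ± 0.08, adjusted p = 0.0107) and the droplet protein Cidea (0.69 ± 0.12, adjusted p = 0.0249) rose and Lpin1 fell. Cidea is also a marker of fat cells: the mean of 13 adipocyte markers spanned -0.01 to 0.34 in knockouts and -0.18 to 0.03 in controls, and its part was not tested. Calls were lost without knockout replicate 2 for Lpcat3 (adjusted p = 0.0552), without knockout replicates 1, 2 or 4 or any control for Insig1 (up to 0.0922), without knockout replicates 1, 2 or 4 or control replicates 1, 3 or 4 for Scd2 (up to 0.0970) and without knockout replicates 1, 2 or 4 or control replicates 1 to 3 for Cidea (up to 0.0733).

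**Figure D3:**
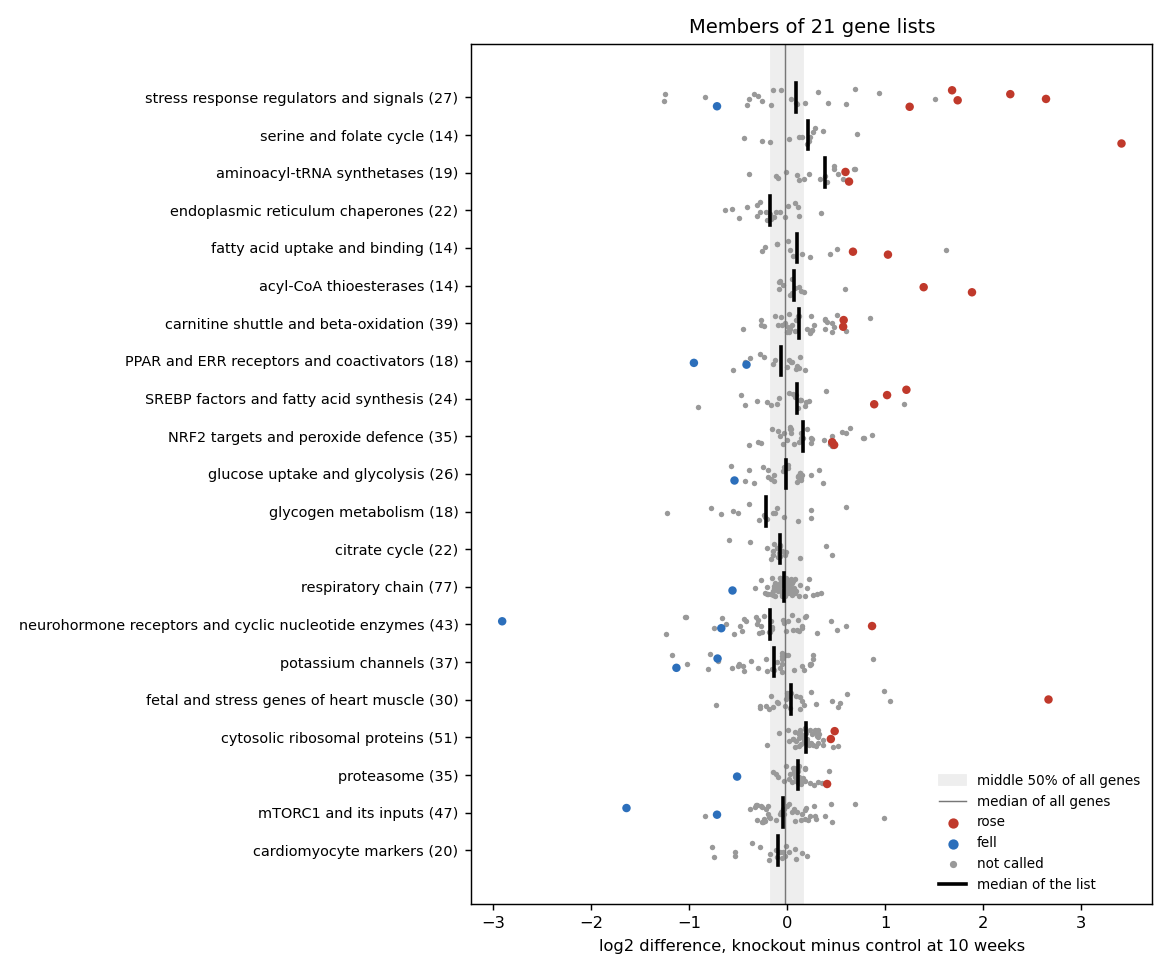
Log2 difference at 10 weeks (horizontal axis) of every measured member of 21 gene lists, with the number of members in brackets. Points are genes (red rose, blue fell, grey not called), black lines are list medians and the grey band is the middle 50% of all genes; 15 of the 21 medians stay within the band. Beyond it lie aminoacyl-tRNA synthetases (0.39), the serine and folate cycle (0.215) and cytosolic ribosomal proteins (0.19) on the higher side, and glycogen metabolism (-0.21), neurohormone receptors and cyclic nucleotide enzymes (-0.18) and endoplasmic reticulum chaperones (-0.18) on the lower side.

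Among the largest rises were those of 2 conjugating enzymes, Gsta2 and Gsta1. Gsta2 read 3.25, 3.77, 3.25 and 3.93 in knockouts and -0.65, 0.87, -0.39 and -0.80 in controls, a 13.9-fold difference. Gsta1 read 3.26, 3.99, 2.95 and 3.82 in knockouts and 0.71, -0.10, -1.50 and 0.61 in controls, a log2 difference of 3.58 ± 0.41 (adjusted p = 0.00134). The 2 alpha-class transferases, which join glutathione to reactive lipids and drugs, are near-identical copies, so their 2 single probes may share targets, which was not tested. They were the only 2 called of 22 glutathione transferases (9.09%, against 0.686% of all genes), whose median was 0.06. Cyp1a1, a cytochrome induced by the aryl hydrocarbon receptor, as Gsta1 can be, fell by 2.17 (SE 0.41, adjusted p = 0.0305). It read -1.02, -0.11, -1.06 and 0.35 in knockouts and 1.25, 2.04, 1.84 and 1.70 in controls. Its call ended without knockout replicates 1 to 3 or any control (adjusted p up to 0.0942).

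Of 35 NRF2 targets and genes of peroxide defence, 27 were above 0 (77.1%, against 46.5% of all genes), 10 had all knockouts above all controls (against 3.24%), and 2 were called (5.71%, against 0.686%). Gpx4, the peroxidase that reduces lipid peroxides, rose by 0.46 ± 0.08 (adjusted p = 0.0235), with knockouts from 0.36 to 0.45 and controls from -0.12 to 0.06. Sqstm1, the autophagy receptor p62, rose by 0.48 ± 0.09 (adjusted p = 0.0279). Nqo1, a quinone reductase often used to follow NRF2, read 0.62 to 1.14 in knockouts and -0.25 to 0.07 in controls without passing (0.87 ± 0.23, adjusted p = 0.130). Prdx1 also did not pass (0.47 ± 0.11, adjusted p = 0.0835). Among genes named after their values were seen, the ferritin light chain Ftl1, which stores iron, rose by 0.75 ± 0.11 (adjusted p = 0.00598), and its related locus Ftl2-ps by 0.88 ± 0.11 (adjusted p = 0.00313), and the 2 may share transcripts on their probes. Hagh, the glyoxalase that clears a product of methylglyoxal, rose by 0.57 ± 0.10 (adjusted p = 0.0167) and Ephx2, the soluble epoxide hydrolase, by 0.52 ± 0.10 (adjusted p = 0.0305). Calls were lost without knockout replicates 1, 2 or 4 or control replicates 2 to 4 for Gpx4 (adjusted p up to 0.0736) and without knockout replicates 2 to 4 or any control for Sqstm1 (up to 0.0820). For Hagh this held without knockout replicates 2 or 4 or control replicates 2 or 4 (up to 0.0643), and for Ephx2 without knockout replicates 1, 3 or 4 or any control (up to 0.0919).

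Enzymes of nicotinamide and nucleotide salvage were among the called genes. Nmrk2, the muscle kinase that turns nicotinamide riboside into an NAD precursor, read 4.03, 3.70, 2.66 and 3.77 in knockouts and -0.42, 0.00, -0.24 and -0.05 in controls. The difference was 13.2-fold (log2 3.72 ± 0.39, adjusted p = 0.000660), while none of the other 21 measured genes of NAD synthesis and sirtuins was called. Sirt3, the mitochondrial deacetylase, read -0.61 to -0.26 in knockouts and -0.23 to 0.06 in controls (-0.43 ± 0.11, adjusted p = 0.125). Adssl1, the muscle enzyme that starts the return of inosine monophosphate to AMP, read 0.82, 0.88, 0.98 and 0.84 in knockouts and 0.00, -0.13, -0.14 and 0.05 in controls, a log2 difference of 0.93 ± 0.09 (adjusted p = 0.000355). Uck2, a uridine and cytidine kinase, rose by 0.74 ± 0.11 (adjusted p = 0.00598), and Ada, which deaminates adenosine, by 0.87 ± 0.17 (adjusted p = 0.0317). Adssl1 and Uck2 were named after their values were seen. Slc29a2, a nucleoside transporter, fell by 2.08 (SE 0.43, adjusted p = 0.0476), with knockouts from -2.42 to -0.57 and controls from 0.39 to 0.79. Its call ended without knockout replicates 2 to 4, any 2-week knockout, any control or 2-week control replicates 1 or 2 (adjusted p up to 0.134), and that of Ada without knockout replicates 2 to 4 or any control (up to 0.0939).

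Of glucose genes 1 of 26 (3.85%) and of respiratory chain genes 1 of 77 (1.30%) were called, against 0.686% of all genes. Ldha, the lactate dehydrogenase subunit of glycolytic tissue, fell by 0.54 (SE 0.10, adjusted p = 0.0278), with knockouts from -0.49 to -0.40 and controls from -0.08 to 0.16. It was the one called among genes of glucose uptake and glycolysis, and their median of -0.02 turned to 0.01 after quantile normalisation. The glucose transporter Slc2a1 read -0.27 to -0.15 in knockouts and 0.11 to 0.36 in controls and did not pass (-0.43 ± 0.10, adjusted p = 0.0837). Hif1a, the oxygen-regulated factor for which both of these genes are targets, rose by 1.03 ± 0.17 (adjusted p = 0.0147). It read 0.72, 0.70, 0.86 and 1.26 in knockouts and -0.21, -0.20, 0.00 and -0.19 in controls, whereas 6 of 30 genes on the list of hypoxia targets, Hif1a itself among the 6, were above 0 and the median was -0.13. Glycogen genes had a median of -0.21 with 4 of 18 above 0. Limma called 0 of 18, and 5 had an unadjusted p under 0.05 (against 9.96% of all genes). The branching enzyme Gbe1 was the nearest to passing (0.60 ± 0.13, adjusted p = 0.0537). The respiratory chain genes had a median of -0.03, and the one called was Cox7a1, the muscle form of a cytochrome oxidase subunit (-0.56 ± 0.10, adjusted p = 0.0236). Limma called none of 22 citrate cycle genes (3 at an unadjusted p under 0.05, against 9.96% of all genes), and 3 were above 0. The calls of Ldha and Cox7a1 ended without knockout replicates 1, 2 or 4 or control replicates 1, 2 or 4, and for Cox7a1 also without control replicate 3 (adjusted p up to 0.0830 and 0.0738).

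Among heart muscle genes, Myh7, the beta isoform of myosin heavy chain that predominates before birth, read 1.85, 1.48, 1.55 and 1.78 in knockouts and -1.02, -1.51, -0.49 and -0.98 in controls. It rose 6.34-fold (log2 2.66 ± 0.28, adjusted p = 0.000660), and its 2 probes gave 2.59 and 2.74. It was the only one called of 30 fetal and stress genes (3.33%, against 0.686% of all genes). Of the 30, 19 were above 0 and 11 below, and the median was 0.04. All knockouts were above all controls for 5 of them (against 3.24% of all genes). Nppb, Nppa and Acta1, which a loaded heart re-expresses, had all knockouts above all controls without passing, at 0.99 ± 0.31 (adjusted p = 0.231), 0.61 ± 0.28 (adjusted p = 0.493) and 1.05 ± 0.23 (adjusted p = 0.0629). Abra, an actin-binding activator of SRF signalling named after its values were seen, rose by 1.01 ± 0.16 (adjusted p = 0.0110). Tmod4, which caps thin filaments, fell by 1.89 (SE 0.35, adjusted p = 0.0278) with knockouts from -2.59 to -0.50. Cmya5, or myospryn, of the Z-disc, also named after its values were seen, fell by 0.56 (SE 0.11, adjusted p = 0.0330). Limma called none of 31 adult contractile and calcium genes, and 7 had an unadjusted p under 0.05 (against 9.96% of all genes). The calls of Tmod4 and Cmya5 ended without knockout replicates 1 or 2 or any control, and for Cmya5 also without knockout replicate 4 or 2-week control replicate 4 (adjusted p up to 0.0785 and 0.0975).

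Most measured neurohormone receptors and cyclic nucleotide enzymes (28 of 43) and potassium channels (27 of 37) were below 0, and a few fell. Above 0 were 34.9% and 27.0%, against 46.5% of all genes. Gpr22 read -1.72, -1.64, -1.59 and -0.26 in knockouts and 1.08, 1.94, 1.70 and 1.72 in controls, and knockout replicate 4 stood apart from the other 3. Adcy6, an adenylyl cyclase that makes cyclic AMP behind beta-adrenergic receptors, fell by 0.67 (SE 0.13, adjusted p = 0.0355), and its relative Adcy5 differed by -1.23 ± 0.28 without passing (adjusted p = 0.0702). Of 43 neurohormone receptors and cyclic nucleotide enzymes, Ada rose, these 2 fell, 9 had all knockouts below all controls (against 3.36% of all genes), and the median was -0.18. Kcnj12, an inward rectifier that holds the resting potential, read -0.67, -1.26, -0.87 and -1.32 in knockouts and 0.01, 0.00, 0.34 and 0.06 in controls, a log2 difference of -1.13 ± 0.16 (adjusted p = 0.00584). Kcnq1, which carries a late repolarising current, fell by 0.71 (SE 0.15, adjusted p = 0.0481), but its call ended in all 15 fits without 1 array (adjusted p from 0.0619 to 0.121). They were the 2 called of 37 potassium channels (5.4%, against 0.686% of all genes), of which 10 were above 0. The call of Adcy6 ended without any knockout, control replicates 1 to 3, 2-week knockout replicate 2 or 2-week control replicate 4 (adjusted p up to 0.109). Beside these lists, the mean of 20 cardiomyocyte markers spanned -0.19 to -0.03 in knockouts and -0.02 to 0.10 in controls, and 5 of 20 were above 0. Fibroblast markers lay the other way, with a median of 0.22 and 16 of 20 above 0 (against 46.5% of all genes). Their mean spanned -0.11 to 0.36 in knockouts and -0.52 to -0.02 in controls. Of the 20, 4 had all knockouts above all controls (against 3.24% of all genes). At 2 weeks the same mean spanned 0.24 to 0.88 in knockouts and -0.32 to 0.37 in controls. Limma called 0 of either marker list at 10 weeks. At an unadjusted p under 0.05 were 3 cardiomyocyte and 4 fibroblast markers (against 9.96% of all genes). The part of either cell type in the differences of other genes was not tested.

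Among 37 cardiac transcription factors Hif1a rose and Tbx5 fell. Tbx5, which patterns the heart chambers and is a marker of atrium, gave opposite signs on its 2 probes, -2.13 ± 0.28 (adjusted p = 0.00396) and 0.43 ± 0.21 (adjusted p = 0.628), so its mean fall of 0.85 (SE 0.17, adjusted p = 0.0355) describes neither. The mean of 19 atrial and conduction markers spanned -0.09 to 0.02 in knockouts and -0.08 to 0.12 in controls. Supt16, a subunit of the histone chaperone FACT, fell by 1.74 (SE 0.27, adjusted p = 0.0107) and Zbtb43, a zinc finger protein, by 1.18 (SE 0.22, adjusted p = 0.0305). Without 1 array the call of Tbx5 ended for knockout replicates 1, 3 or 4, 2-week knockout replicate 1 or any control (adjusted p up to 0.104), and that of Zbtb43 for knockout replicates 2 or 4 or control replicates 1, 3 or 4 (up to 0.0968).

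The mTORC1 list, to which the title of the study points, had 2 called genes of 47 (4.3%, against 0.686% of all genes), both lower, and a median of -0.04. Sesn1, a sestrin that restrains mTORC1 when leucine is short, read -0.83, -1.16, -1.33 and -1.61 in knockouts and 0.21, 0.39, 0.72 and 0.31 in controls. It fell by 1.64 (SE 0.31, adjusted p = 0.0317), with probes at -0.97, -1.40 and -2.55. Eif4ebp1, the translation repressor that mTORC1 inactivates, fell by 0.72 (SE 0.14, adjusted p = 0.0400), on probes of -1.32 ± 0.22 (adjusted p = 0.0192) and -0.11 ± 0.11 (adjusted p = 0.866). Fbxw7, which is not on this list, encodes the receptor subunit of a ubiquitin ligase whose substrates include MYC, SREBP and mTOR. It read -0.81, -1.57, -1.52 and -1.80 in knockouts and 0.08, 0.27, 0.01 and 0.62 in controls. It fell by 1.67 (SE 0.19, adjusted p = 0.00134), and both of its probes were called (-0.86 and -2.49). Fnip2, a partner of folliculin at the lysosome, was the next of the mTORC1 list and did not pass (0.98 ± 0.22, adjusted p = 0.0693). Array values are of RNA and give no measure of kinase activity. The call of Sesn1 ended without knockout replicates 2 to 4 or any control (adjusted p up to 0.0975). That of Eif4ebp1 ended without any knockout, 2-week knockout replicates 2 or 3, control replicates 1, 3 or 4 or 2-week control replicates 2 to 4 (up to 0.108).

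Most cytosolic ribosomal protein genes were slightly above 0, and 2 of 51 were called (3.92%, against 0.686% of all genes). Of these 51 genes, 49 were above 0, 24 had all knockouts above all controls (against 3.24% of all genes), and the median was 0.19. The mean of the list spanned 0.06 to 0.20 in knockouts and -0.10 to 0.02 in controls, and 49 of 51 were above 0 with array medians subtracted and 48 of 51 after quantile normalisation. The 2 called were Rpl10a (0.45 ± 0.09, adjusted p = 0.0355) and Rps2 (0.49 ± 0.10, adjusted p = 0.0476, probes from 0.23 to 0.62). Rpl22l1, a paralog of a ribosomal protein named after its values were seen, rose by 0.79 ± 0.11 (adjusted p = 0.00558). Mitochondrial ribosomal proteins had a median of 0.05 with 39 of 56 above 0. Limma called 0 of them, and 9 had an unadjusted p under 0.05 (against 9.96% of all genes). Of 35 proteasome genes 29 were above 0, with Psmc1, an ATPase of the cap, rising by 0.41 ± 0.08 (adjusted p = 0.0394) and Psme1, an activator induced by interferon, falling by 0.51 (SE 0.10, adjusted p = 0.0355). Psmb10, an immunoproteasome subunit named after its values were seen, rose by 0.66 ± 0.08 (adjusted p = 0.00295). The call of Rpl10a ended without any knockout, control replicates 1, 2 or 4 or 2-week control replicate 4 (adjusted p up to 0.105). That of Rps2 ended in all fits without 1 array except that without 2-week knockout replicate 3 (up to 0.129). Those of Psmc1 and Psme1 ended without knockout replicates 1, 2 or 4, 2-week knockout replicate 2, any control or 2-week control replicates 1, 2 or 4, and for Psmc1 also without knockout replicate 3 (up to 0.113 and 0.101).

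Several of the most extreme genes stood on no list. Mpped2, a metallophosphoesterase, had the smallest p of all genes: it read -1.39, -1.27, -1.24 and -1.10 in knockouts and 0.12, 0.05, 0.35 and 0.08 in controls, a log2 difference of -1.40 ± 0.12 (adjusted p = 0.000346). Both probes gave nearly that value (-1.43 and -1.37). Smim5, a small membrane protein, read -1.84, -2.66, -2.58 and -3.02 in knockouts and 0.22, -0.64, 0.01 and 0.01 in controls (-2.42 ± 0.24, adjusted p = 0.000434). Fam131a, named after its values were seen, fell by 1.12 (SE 0.11, adjusted p = 0.000434). Genes of the microtubule cytoskeleton were among the 20 largest falls: Tppp, which promotes tubulin polymerisation (-2.02 ± 0.28, adjusted p = 0.00499), Fign, which severs microtubules (-1.79 ± 0.29, adjusted p = 0.0133), Ttc30b, a subunit of transport along cilia (-1.75 ± 0.25, adjusted p = 0.00564), and Pcnt, of the centrosome (-1.42 ± 0.29, adjusted p = 0.0489). This grouping was made after the values were seen and was not tested as a list. Pcnt rested on probes of -2.28 and -0.56, neither called, and its call ended without any knockout, 2-week knockout replicate 2, any control or 2-week control replicates 2 or 4 (adjusted p up to 0.132), while that of Fign ended without knockout replicate 2 (adjusted p = 0.0516). The other large falls were of Trabd2b, a protease that acts on Wnt proteins (-1.81 ± 0.28), Ankrd9 (-1.65 ± 0.27), Gin1 (-1.63 ± 0.29), Slc22a23 (-1.23 ± 0.21), Ccdc69 (-1.23 ± 0.18, on probes of -2.34 and -0.11) and Smim3 (-1.19 ± 0.23), with adjusted p between 0.00668 and 0.0336. Trabd2b and Ccdc69 stayed called without any 1 array, Ankrd9 lost its call without knockout replicate 2 (adjusted p = 0.0505), and Gin1, Slc22a23 and Smim3 lost theirs without 5 to 9 arrays each, knockout replicates 1 and 2 and control replicates 1 and 4 among them (up to 0.0704, 0.0604 and 0.101). Trabd2b was not called with the 10-week arrays alone (adjusted p = 0.102). With trend and robust moderation Ccdc69 and Smim5 were not called (adjusted p = 0.0813 and 0.125).

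Other large rises were also of genes on no list. Clec4f, a lectin of liver macrophages, read 3.22, 3.06, 1.69 and 2.23 in knockouts and -0.03, -0.20, 0.36 and 0.00 in controls, a log2 difference of 2.52 ± 0.30 (adjusted p = 0.00134). Beside it, 0 of 26 leukocyte markers were called by limma (1 at an unadjusted p under 0.05), and their median was -0.001, which turned to 0.014 with array medians subtracted. Aqp8, a water channel, rose by 2.25 ± 0.37 (adjusted p = 0.0154), Dus2, which modifies tRNA, by 1.87 ± 0.22 (adjusted p = 0.00135), Prss22, a serine protease, by 1.59 ± 0.28 (adjusted p = 0.0235) and Wfdc3 by 2.31 ± 0.42 (adjusted p = 0.0261). The pseudogene C4bp-ps1 rose by 3.09 ± 0.54 (adjusted p = 0.0218), with controls spread from -2.29 to 0.96. Ube2ql1, a relative of ubiquitin-conjugating enzymes, rose by 1.94 ± 0.40 (adjusted p = 0.0497), with knockout replicates 1 and 2 at 0.28 and 0.64 and replicates 3 and 4 at 2.07 and 2.03. Dus2 and Clec4f stayed called without any 1 array. The call of Aqp8 ended without knockout replicate 4 or control replicates 2 or 4 (adjusted p up to 0.0553), that of Prss22 without knockout replicates 2 or 4 or control replicates 1, 3 or 4 (up to 0.0787), that of Wfdc3 without these or knockout replicate 3 (up to 0.0830), that of C4bp-ps1 without knockout replicates 2 to 4 or control replicates 2 or 4 (up to 0.0685), and that of Ube2ql1 in 13 of 15 fits (up to 0.134), all but those without knockout replicate 1 or 2-week control replicate 1.

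Tested one by one, 246 of 41174 mouse probes were called (0.597%), 128 higher and 118 lower. Of these, 130 belonged to 117 of the called genes, 79 to 76 genes that were not called as means of their probes, and 37 to no named gene. One probe of Myc, the growth-promoting transcription factor, read 1.78, 2.36, 1.60 and 1.27 in knockouts and -0.12, 0.49, -0.25 and -0.18 in controls. That probe gave 1.77 ± 0.23 (adjusted p = 0.00374), while the mean of the 3 Myc probes gave 0.71 ± 0.26 (adjusted p = 0.320). Other rises of single probes were of Nupr1l (1.53), the survival factor Bcl2 (1.10), Mmd (1.10), Clmp (1.04) and Hsd17b11 (0.97). None of these genes was called as the mean of its probes. A probe of Tcaim, a mitochondrial protein, read -0.25, -0.24, 0.03 and -0.31 in knockouts and 2.30, 2.09, 2.20 and 2.10 in controls, a log2 difference of -2.36 ± 0.23 (adjusted p = 0.000617) against -1.53 for its gene (adjusted p = 0.113). The groups did not overlap on either of these probes, which were chosen by their calls, as on 5.79% of all mouse probes. Single probes that fell were of the phosphodiesterase Pde1c (-2.36), Zfp30 (-2.19), the lipid flippase Atp10d (-2.12), the muscle fibre regulator Sox6 (-1.73), the DNA polymerase Rev1 (-1.71), Pou6f1 (-1.66) and Itsn2 (-1.60). These genes too were not called, so the values hold for the single probes only. Probes of 1 gene can report different transcript ends or differ in quality, and which applies was not tested.

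**Figure D4:**
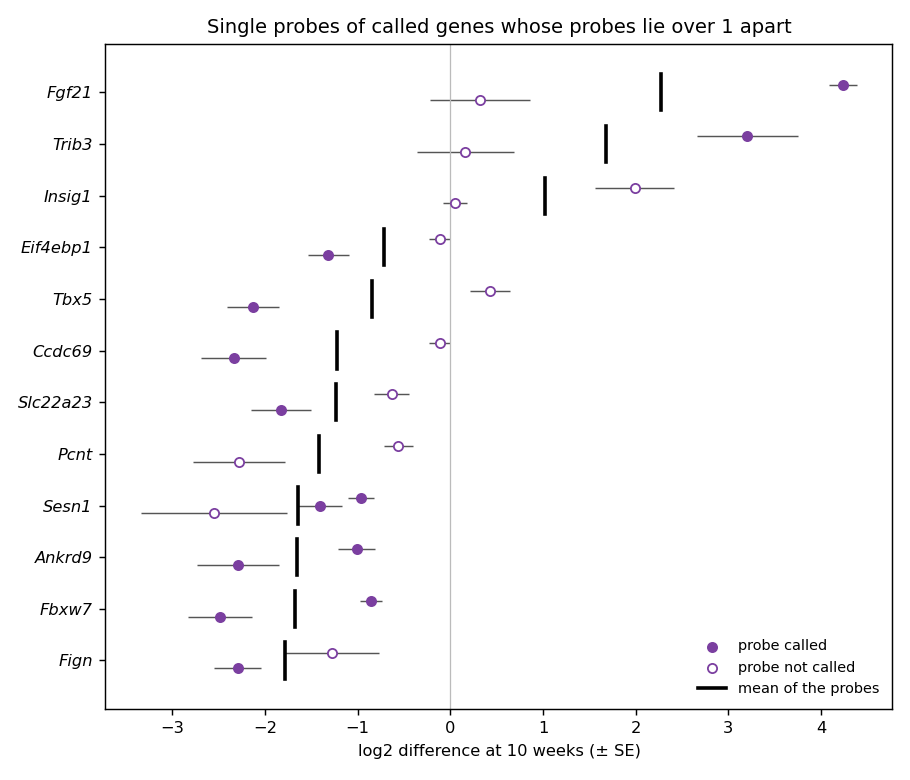
Log2 difference at 10 weeks ± SE (horizontal axis) of the single probes of the 12 called genes in the text whose probes lie over 1 log2 unit apart. Filled points are probes called by themselves, open points are not, and black lines are the means of the probes; Fgf21, Trib3, Insig1, Tbx5, Eif4ebp1 and Ccdc69 each have 1 probe near 0.

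The question of whether these differences belong to the late time was tested as the difference between the effects at 10 and at 2 weeks. Of the 134 genes, 112 (83.6%) had the same sign at 2 weeks, against 52.8% of all genes, with a median difference at 2 weeks of 0.15 over the genes that rose and -0.21 over those that fell. For 104 of them the 4 late knockouts lay beyond all other 11 arrays. The 134 were chosen by their 10-week values and the same count over all genes was not made, so it does not bear on lateness. Limma called 0 of 19532 genes for the difference between effects, against 1331 at an unadjusted p under 0.05, so single genes cannot be said to be late only. The nearest were Gsta2, whose effect was 3.63 ± 0.52 larger at 10 weeks, and Tbxa2r, the thromboxane receptor, named after its values were seen, whose effect was -2.98 ± 0.42 (10 weeks minus 2 weeks), both at an adjusted p of 0.0901. Tbxa2r differed by -1.19 ± 0.29 at 10 weeks (adjusted p = 0.0931) and by 1.79 ± 0.31 at 2 weeks (adjusted p = 0.160), and neither passed. Clec4f followed (2.86 ± 0.43, adjusted p = 0.114). Among single probes 2 of 41174 were called (0.00486%). The Fgf21 probe A_52_P235347 had an effect larger by 3.81 ± 0.22 (adjusted p = 1.33e-05), with 2-week knockouts at 0.29, 0.59 and 0.00. The other was A_51_P305138, which has no gene name in the annotation, larger by 4.15 ± 0.42 (adjusted p = 0.00538). At 2 weeks 1 gene was called (0.00512%). This was Myh7, the only gene called at both times: its difference was 2.46 ± 0.31 at 2 weeks (adjusted p = 0.0393) and the effects differed by 0.21 ± 0.42 (adjusted p = 0.919).

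**Figure D5:**
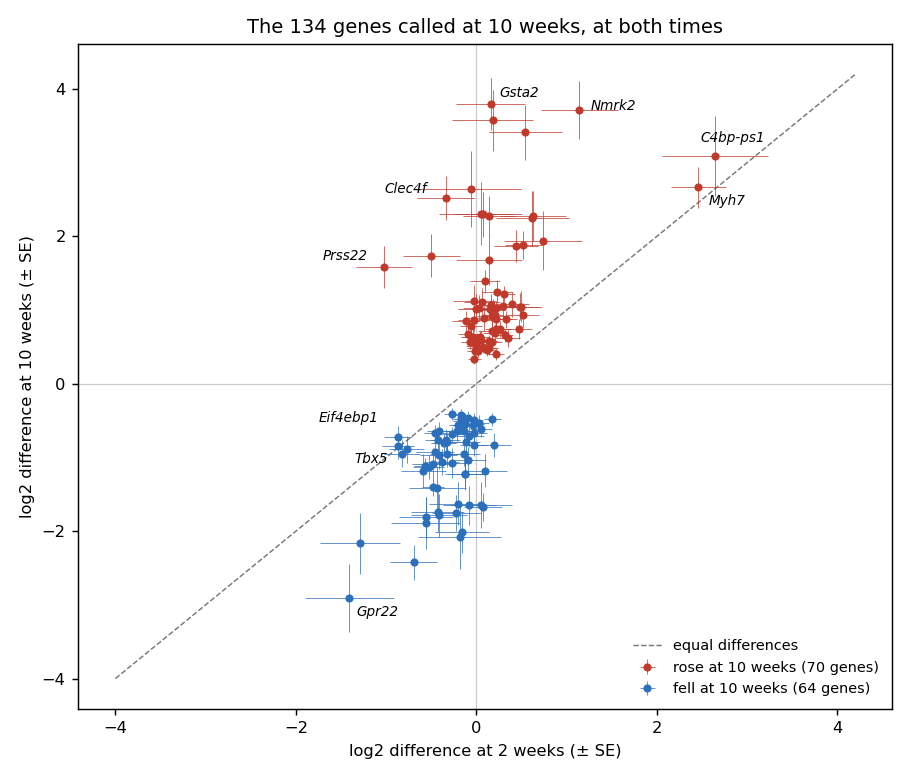
Log2 difference of the 134 genes called at 10 weeks, at 2 weeks (horizontal axis, 3 knockouts against 4 controls) and at 10 weeks (vertical axis, 4 against 4), each ± SE, with a dashed line of equal differences. At 2 weeks 111 of the 134 lie within 0.5 of 0, and Myh7, Tbx5 and Eif4ebp1 are among those close to the line.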

How the data were processed

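RNA of mouse ventricle was measured on Agilent arrays of 2 colours. The deposited table holds 41267 probes on 15 arrays; its log2 values were used as deposited by the authors and read as heart over reference. How arrays were scanned, corrected for background and scaled is not given in the sources used here. Every probe had a median of 0 over the 15 arrays. The number of arrays limits the precision, and signal over background was not analysed here. Of 41174 mouse probes, 32664 carried 1 symbol, 45 several and 8465 none, and 93 spots were array controls. Probes with 1 symbol were averaged to 19532 genes, 8511 of them with more than 1 probe.

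All contrasts came from limma 3.58.1 (lmFit and eBayes, R 4.3.3), in 1 fit of 4 group means over all 15 arrays with 11 residual degrees of freedom and 2.07 added by moderation. P-values are two-sided and adjusted by Benjamini-Hochberg over all genes, or over all mouse probes, of a contrast, and the threshold was 0.05. The fit was tested on simulated data with 200 changed genes. Named were the 20 largest calls in each direction, called members of the lists and up to 4 members per list with the smallest p, up to 8 single probes in each direction whose gene was not called, and genes marked as named after their values were seen; clone names were counted only. The gene lists and members were chosen with earlier results of these data known. No list was tested as a set. Promoters are RefSeq windows of GRCm38.p6. Of 1460 list genes, 1364 were measured. Alternatives covered the arrays entered, scaling, probe choice, moderation, array weights, thresholds, a block for replicate numbers and leaving out each array.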

Additional observations from a re-analysis of the deposited data

Results flagged for a closer look

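Array control spots that the comparisons did not use carried the largest signal of the table. AT_nX_3 differed between knockouts and controls at 10 weeks by 8.11 on the log2 scale and AT_nX_5 by 6.59, with similar differences at 2 weeks (8.40 and 6.84). The other 91 control spots lay between -0.28 and 0.44 at 10 weeks. The tables used here do not say what these 2 spots detect.

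Of the called mouse probes, 37 have no gene symbol in the annotation, 29 higher and 8 lower in knockouts. The largest rise among them was 4.56 ± 0.42, of A_52_P532982. Probes without a symbol were called in 0.437% of cases and probes with 1 symbol in 0.640%.

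The effect at 10 weeks exceeded that at 2 weeks on 2 probes, by 3.81 on A_52_P235347 of Fgf21 and by 4.15 on A_51_P305138, which has no symbol. On the latter, 2-week knockouts read -0.87, -1.26 and -0.75, below all 4 controls of that time, and 10-week knockouts 3.17, 3.64, 2.94 and 3.36.

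In 10 of 166 groups of 4 arrays, for the 83 called genes of the text at 10 weeks, 1 array lay far from the other 3, where chance alone flags about 5% of groups. Among knockouts these were Gpr22 in replicate 4 (-0.26 against -1.72 to -1.59), Eif4ebp1 in replicate 3 (-0.50 against -0.66 to -0.64) and Kcnq1 in replicate 1 (-0.91 against -0.50 to -0.44). Among controls they were Atf3 in replicate 1 (0.06 against -1.71 to -1.44), Wfdc3 in replicate 2 (1.47 against -0.28 to -0.05), Ftl2-ps in replicate 2 (-0.32 against -0.05 to 0.00), Hif1a in replicate 3 (0.00 against -0.21 to -0.19), Kcnj12 in replicate 3 (0.34 against 0.00 to 0.06), Kcnq1 in replicate 4 (0.59 against -0.06 to 0.03) and Agpat3 in replicate 4 (-0.08 against -0.13 to -0.12).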

How the results depend on the processing

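Against 134 called genes at 10 weeks, limma called 50 with the 8 arrays of 10 weeks alone, 89 when each gene was read from its most variable probe, 89 with trend and robust moderation, 35 at an adjusted p under 0.01 and 253 under 0.10. Counts without 1 array ran from 61 to 142. Apart from these and the replicate block, the other alternatives stayed within 1.5 times. For the difference between effects, 0 genes became 1 with the most variable probe and 0 to 4 without 1 array. The 246 single probes became 98 with the 10-week arrays alone and 114 to 254 without 1 array. Replicate numbers are not said to pair animals. Deviations of same-numbered knockouts and controls at 10 weeks correlated by -0.0122, 0.0213, 0.0532 and 0.0628. Pairs of unlike number ran from -0.0596 to 0.0162. All these values are small, but the highest were of same-numbered pairs, so whether the numbers mark pairs or batches is not settled. With the replicate block 71 genes (67 of them among the 134), 123 probes and 0 genes for the difference between effects were called. Of the 83 called genes of the text, 50 lost their call with the 10-week arrays alone, 33 with the block, 28 with the most variable probe, 26 with trend and robust moderation, 11 with quantile normalisation, 3 with array medians subtracted, 1 with the median probe and 0 with array weights. Of their 1909 alternative values 0 changed sign, but 479 were no longer called. The fit with 10-week arrays alone has fewer residual degrees of freedom. List medians moved by at most 0.049 under the other scalings, and 6 of 56 changed sign. With 4 arrays a group, a gene without a call is not shown to be unchanged.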
